A study of Mus musculus with 18 samples.

Results

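The genes described here encode the nuclear part of the oxidative phosphorylation system, the chain of enzymes in the inner mitochondrial membrane that makes most of the ATP of a resting cell. They were taken by symbol, as every protein-coding gene whose name starts with Nduf, Sdha, Sdhb, Sdhc, Sdhd, Uqcr, Cox4, Cox5, Cox6, Cox7, Cox8 or Atp5. The rule gave 98 gene IDs of the 56953 in the deposited table, and it left out 13 IDs under the same prefixes that are pseudogenes or non-coding. The members fall into 7 core subunits, 29 accessory subunits and 8 assembly factors of complex I, 4 subunits and 4 assembly factors of complex II, 8 subunits of complex III, 20 of complex IV and 18 IDs of complex V. Of the 98 IDs, 92 had enough counts to be tested. The other 6 were the second of 2 IDs for Atp5o, Cox7b2, Cox8b and Cox8c with no count in any library, and Ndufa4l2 and Cox4i2 with 4 and 13 counts over all libraries.

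Complex I takes electrons from NADH and complex II takes them from succinate. Both pass them through coenzyme Q to complex III, from there cytochrome c carries them to complex IV, which reduces oxygen, and complex V uses the proton gradient to make ATP. In macrophages, lipopolysaccharide (LPS) is known to shift ATP production towards glycolysis and to change the use of succinate and of complexes I and II, which has made these genes a frequent object of study in inflammatory activation.

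The cells were mouse macrophages grown from bone marrow for 7 days in medium with 20% serum and 30% supernatant of L929 cells, which supplies the growth factor M-CSF. The donors were mice of strain C57BL/6J, B6 in what follows, or knock-in mice whose kinase RIPK1 carries the change T169A, which gives that group its name. RNA was taken from unstimulated cells, from cells given LPS for 2 hours and from cells given LPS/5z7 for 2 hours, with 3 libraries in each of the 6 groups. The labels leave 5z7 unexplained; the name usually stands for (5Z)-7-oxozeaenol, which blocks the kinase TAK1. Nor do they say how many animals stand behind a group, so p-values measure the spread between these libraries, and gene counts cannot check a change of 1 amino acid.

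Libraries held 14645076 to 30425934 counts and are named by the running number of their column. The 8 macrophage markers were all present and together made up 31660 to 44590 CPM (counts scaled to a common library size), against at most 47.4 CPM for any of the lists of neutrophil, T cell, B cell, dendritic cell, mast cell, erythroid, fibroblast and endothelial markers. CPM here use the trimmed mean of M-values (TMM), whose factors were 1.24 to 1.28 without stimulation and 0.83 to 0.86 with LPS. A direction is therefore relative to the bulk of the genes. Scaled by library size alone, the median of all genes moved by −0.66 in B6 and −0.61 in T169A with LPS on the log2 scale, and the members took 0.613 ± 0.0195% of all counts in unstimulated T169A cells and 0.514 ± 0.0657% after LPS (SD, n = 3). In B6 the share was 0.458 ± 0.037% after LPS, and 0.562%, 0.567% and 0.865% in unstimulated libraries 1, 4 and 7, of which library 7 is described next. In bulk samples, fewer cells of a type and less RNA per cell cannot be told apart.

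The member transcripts were short, with a median length of 772 bases and 56 of 92 under 1000 bases, and their levels moved together from library to library within a group. One library stood apart. In B6 unstimulated library 7 the members summed to 6815 CPM, against 4463 CPM in library 1 and 4583 CPM in library 4 of the same group, and library 7 was the highest of the 3 for 88 of 92 members. The median member lay 0.47 above its mean over all libraries in library 7 and 0.28 and 0.25 below it in libraries 1 and 4 (log2 CPM). Other transcripts under 1000 bases lay 0.43 above their mean in library 7, cytosolic ribosomal protein genes lay 0.52 above it, and transcripts over 5000 bases stood at −0.56. Library 7 also had the fewest counts, 14645076, and the lowest sum of mitochondrial DNA encoded genes, 8694 CPM against 11880 CPM in each of the other two. The main counts and medians that rest on unstimulated B6 cells are therefore given with and without it.

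Smaller shifts of the same kind ran through the other groups except B6 LPS/5z7. There libraries 3, 6 and 9 had member medians of −0.02, −0.04 and −0.07 and were the highest for 37, 32 and 23 of 92 members. Among the T169A LPS libraries, the median member stood at −0.10 in library 11, 0.14 in library 14 and 0.30 in library 17, and other short transcripts stood at −0.12, 0.14 and 0.23. Library 17 was the highest of its group for 82 of 92 members and library 11 the lowest for 80. In the B6 LPS group, library 8 was the highest for 72 members and library 2 the lowest for 72. In both LPS groups, the library with the most long-transcript signal had the least member signal. Long members followed the shifts less than short ones: in library 7 the members under 1000 bases stood at 0.53 and those of at least 1500 bases at 0.24.

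**Figure D1:**
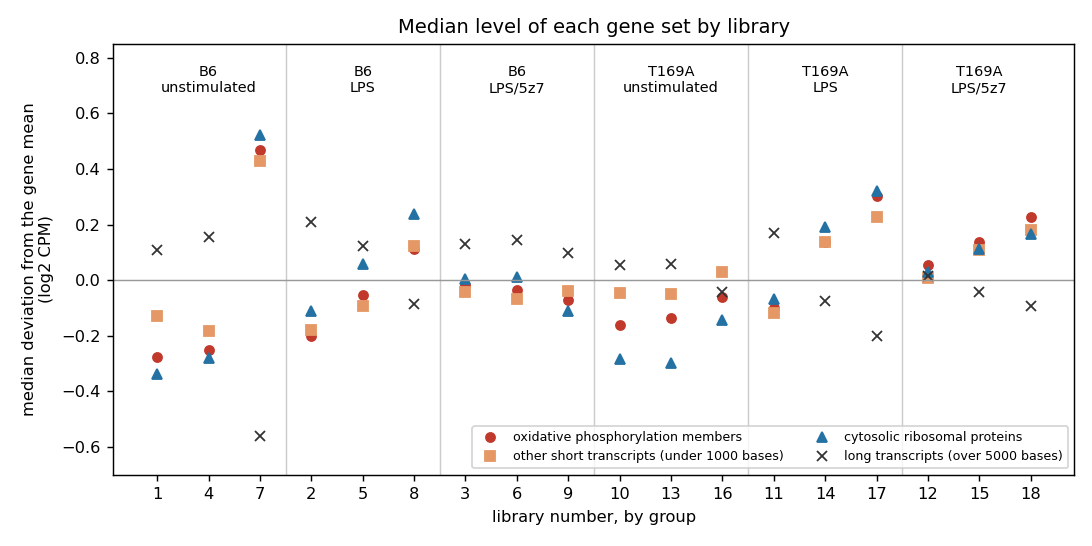
Median deviation of 4 gene sets from each gene's mean over 18 libraries (log2 CPM, y axis) in each library, ordered by group (x axis). The members (red circles) and other short transcripts (orange squares) lie at 0.47 and 0.43 in B6 unstimulated library 7, where long transcripts (crosses) lie at −0.56, and the sets also part in opposite directions in libraries 2 and 17.

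Levels were compared between genes per length of transcript. In unstimulated T169A cells the highest member was Cox4i1, the common form of subunit 4 of cytochrome c oxidase, at 299 CPM per kb. Atp5b, the catalytic beta subunit of ATP synthase, was the highest member of complex V at 200.2 CPM per kb. The 15 complex IV members tested had a median of 86.3 CPM per kb, the 8 of complex III 90.2, the 17 of complex V 82.1, the 4 of complex II 72.4, and the core and accessory subunits of complex I 34.5 and 35.5. The assembly factors, which help build the complexes and are not part of them, lay far lower, with medians of 4.44 CPM per kb for complex I and 5.92 for complex II. Members with near-identical copies elsewhere in the genome are uncertain, since how reads that match several places were counted is not given. Ndufb4 (3.26 CPM per kb) lay below the other complex I subunits. Atp5l (8.98 CPM per kb) lay below the other members placed in complex V by symbol except Atp5s (2.39 CPM per kb).

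The isoforms typical of other tissues were low. Of the complex IV subunits with forms typical of heart and skeletal muscle, Cox6a2 made up 1.24% of its family per kb in unstimulated T169A cells beside Cox6a1. Cox7a1 made up 1.76% of its family, beside 47.1% for Cox7a2 and 51.1% for Cox7a2l, a factor of supercomplex assembly. The testis form Cox6b2 gave 0.529% beside Cox6b1, Cox8a was the one Cox8 gene with counts, and Cox4i2, the form of lung and low oxygen, had 13 counts in all. The c-ring of ATP synthase is encoded by 3 genes with the same mature protein: Atp5g3 gave 50.3%, Atp5g2 27.9% and Atp5g1 21.7% of their sum, and 56.7%, 22.8% and 20.5% after LPS. In B6 the share of Atp5g3 was 53.3% in unstimulated and 58.5% in LPS cells.

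**Figure D2:**
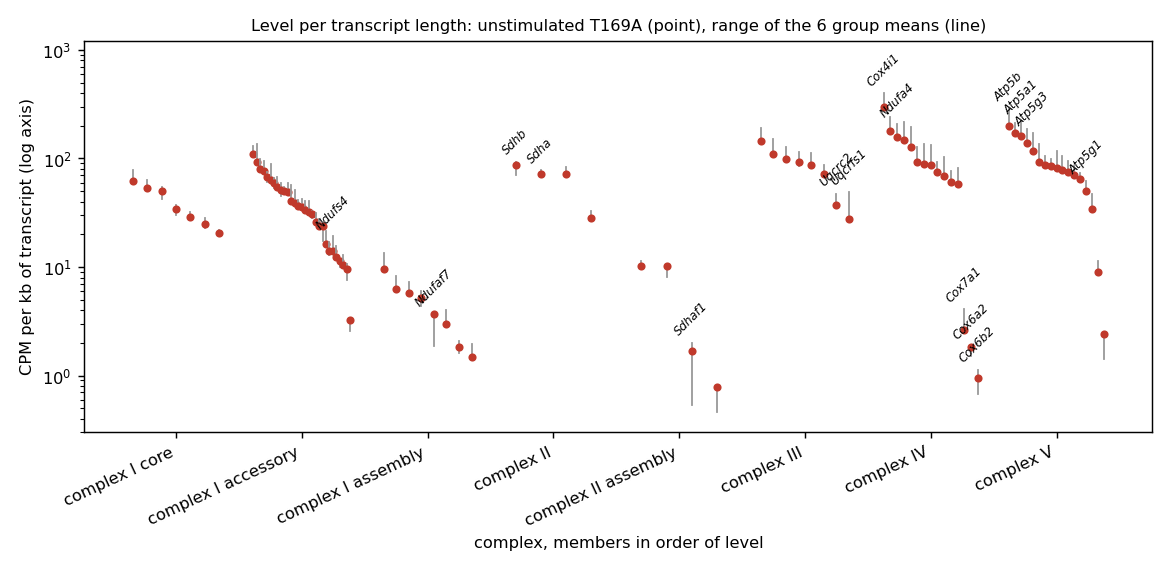
Level of each of the 92 members tested in CPM per kb of transcript (y axis, log scale), by complex and in order of level (x axis). Points are means of 3 unstimulated T169A libraries and lines span the means of the 6 groups; assembly factors and the muscle and testis isoforms of complex IV lie below nearly all other subunits.

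LPS given for 2 hours was compared with no stimulation in each genotype. In T169A cells 21 members rose and 3 fell, and the others did not pass the test (edgeR quasi-likelihood test, Benjamini-Hochberg adjusted p under 0.05 over all genes tested). The called members were 24 of 92, or 26.1%, while 61.9% of all 13068 genes were called, 30.3% higher and 31.5% lower. The median change of all 92 members was 0.24 on the log2 scale, against −0.03 for all genes and 0.11 for other short transcripts. In B6 cells 4 members rose and 9 fell, against 63.1% of all genes called (29.6% higher and 33.5% lower). The B6 median was −0.07, the same as for all genes, against −0.14 for other short transcripts. Without library 7, 27 B6 members were higher and 6 lower with a median of 0.24, against 64.9% of all genes called (31.1% higher and 33.8% lower). Of those 27 members, 17 were also among the 21 higher in T169A cells. Counted by libraries that did not overlap, 35 members were higher and 3 lower in T169A, beside 33.4% and 35.7% of all genes, and 5 and 10 in B6, beside 29.7% and 32.6%. Without library 7, which leaves 2 unstimulated libraries, the B6 counts were 44 and 10, beside 35.8% and 40.1%.

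The T169A count rested in part on single libraries. It was 15 without unstimulated library 10, 13 without unstimulated library 13 and 11 without LPS library 17, the library with the raised short transcripts, where the median was 0.13. With the trend of the change over transcript length removed, 45 members were higher and 3 lower in T169A and 26 higher and 6 lower in B6. Scaled by library size alone, 0 were higher and 35 lower in T169A and 0 and 83 in B6, with medians of −0.34 and −0.67 beside the shift of all genes given above. The share of all genes called under either of these settings is not given here. These counts therefore have no background beside them. How far library composition accounts for the rise of the small subunits was not tested.

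The members called in the same direction in both genotypes were 7 of 92. Of all genes 63.1% were called in B6 and 61.9% in T169A, and the share called alike in both was not counted. Relative to the bulk of genes, Uqcrfs1, Uqcrc2, Atp5a1 and Atp5b rose, and Sdhaf1, Sdhaf3 and Ndufaf7 fell; all 7 were also called in B6 without library 7. The risers are subunits of complexes III and V, and the fallers are assembly factors of complexes II and I. Scaled by library size alone the 4 risers turned to negative values in B6 (−0.10 for Uqcrfs1, −0.37 for Uqcrc2, −0.20 for Atp5a1 and −0.18 for Atp5b), and 3 of them in T169A (−0.25 for Uqcrc2, −0.10 for Atp5a1 and −0.04 for Atp5b), all above the shifts of −0.66 and −0.61 of all genes.

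Uqcrfs1 is the Rieske iron-sulfur protein of complex III, which takes electrons from coenzyme Q. In B6 it stood at 38.0, 39.8 and 55.0 CPM in unstimulated libraries 1, 4 and 7, and at 62.1, 61.4 and 63.3 CPM after LPS. In T169A it stood at 41.8, 35.0 and 36.4 CPM and at 61.2, 68.2 and 70.3 CPM. All LPS libraries lay above all unstimulated ones, library 7 included. The log2 fold change was 0.50 ± 0.12 in B6 (SE, edgeR adjusted p = 0.00126), 0.68 ± 0.09 without library 7, and 0.82 ± 0.12 in T169A (edgeR adjusted p = 9.76e-06), the strongest rise among the members there.

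Atp5a1 and Atp5b encode the alpha and beta subunits that form the catalytic head of ATP synthase, and they are long and abundant for this family. Atp5a1 stood at 386, 409 and 449 CPM in unstimulated B6 libraries 1, 4 and 7 and at 529, 555 and 547 CPM after LPS. In T169A it went from 409, 378 and 398 CPM to 538, 545 and 567 CPM. The groups did not overlap in either genotype, and library 7 stood out less than for the small subunits. The log2 fold changes were 0.39 ± 0.07 in B6, 0.45 ± 0.07 without library 7 and 0.48 ± 0.07 in T169A (edgeR adjusted p = 0.000187, 1.48e-05 and 2.37e-05). Atp5b rose from 409 ± 31.4 to 543 ± 12.7 CPM in B6 and from 384 ± 14.9 to 559 ± 38.6 CPM in T169A (SD, n = 3), by 0.41 ± 0.08 and 0.54 ± 0.08 on the log2 scale (edgeR adjusted p = 0.000215 and 1.16e-05).

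Complex III had, on the same scale, 5 of 8 members higher in T169A and 2 of 8 in B6, or 4 of 8 in B6 without library 7. In the same order, 30.3%, 29.6% and 31.1% of all genes were higher. Called in either direction were 61.9%, 63.1% and 64.9% of all genes. Uqcrc2, a core protein of the matrix arm, rose from 75.8 ± 5.48 to 88.4 ± 1.75 CPM in B6 and from 71.3 ± 4.01 to 90.0 ± 3.82 CPM in T169A. Its log2 fold change of 0.22 ± 0.08 in B6 (edgeR adjusted p = 0.027) lost the call without unstimulated library 1 or LPS library 5 or 8 (0.17, 0.21 and 0.23, edgeR adjusted p = 0.12, 0.078 and 0.051). Uqcrb, which sits near the quinone site, and the hinge protein gene Uqcrh passed in T169A with 0.46 ± 0.15 and 0.41 ± 0.16 on the log2 scale. In B6 they passed without library 7, at 0.41 ± 0.09 and 0.45 ± 0.09. The T169A call of Uqcrb was lost without library 13 or 17 (0.42 and 0.37, edgeR adjusted p = 0.0535 and 0.0708). The small Uqcr10, Uqcr11 and Uqcrq did not pass in either genotype.

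Within complex V, 7 of 17 members were higher in T169A by TMM scaling, against 30.3% of all genes, and 0 by library size alone. They were Atp5a1, Atp5b, the stalk subunits Atp5f1 and Atp5j, the c-ring gene Atp5g3 and the small membrane subunits Atp5k and Atp5mpl. Atp5g3 went from 84.0, 82.9 and 84.4 CPM to 107, 125 and 133 CPM (0.54 ± 0.14, edgeR adjusted p = 0.00236). In B6 it went from 78.9, 85.6 and 124 CPM in libraries 1, 4 and 7 to 100.2, 113 and 124 CPM, where library 7 alone of the unstimulated libraries reached the LPS range. The B6 change was 0.22 ± 0.14 and not called (edgeR adjusted p = 0.16), and 0.45 ± 0.10 without library 7 (edgeR adjusted p = 0.000554). The other c-ring genes did not pass: Atp5g1 changed by 0.27 ± 0.19 and Atp5g2 by 0.07 ± 0.13 in T169A. Without library 7, 9 complex V members were higher in B6, against 31.1% of all genes. These 9 were all of the T169A set and in addition Atp5h and Atp5o. Atp5s, a low gene at 3.40 CPM in unstimulated B6 cells, was called lower there (−0.61 ± 0.24, edgeR adjusted p = 0.0352). It lost the call without library 2, 7 or 8 (−0.47, −0.37 and −0.61, edgeR adjusted p = 0.149, 0.166 and 0.0607).

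Complex IV was the group with the largest median change in T169A, 0.47. By TMM scaling 7 of its 15 members were higher and 0 lower, against 30.3% and 31.5% of all genes. By library size alone 0 were higher. The 7 were Cox4i1, Cox5a and Cox5b and the small membrane or surface subunits Cox6b1, Cox6c, Cox7a2 and Cox8a. Cox6c went from 42.2, 39.6 and 48.3 CPM to 59.0, 68.2 and 72.6 CPM (0.62 ± 0.19, edgeR adjusted p = 0.00921). Cox5a went from 66.0, 55.9 and 48.7 CPM to 82.9, 80.6 and 97.2 CPM (0.61 ± 0.17, edgeR adjusted p = 0.00546). The T169A groups did not overlap for either gene. In B6, 0 of 15 were called with all libraries, against 63.1% of all genes. Without library 7, 7 were higher, against 31.1% of all genes. These 7 were Cox4i1, Cox6b1, Cox6c, Cox7a2, Cox7b, Cox7c and Ndufa4, a subunit once assigned to complex I. Cox5a, Cox5b and Cox8a were not among them, at 0.27 ± 0.14, 0.23 ± 0.15 and 0.27 ± 0.17 without library 7. The median of the complex IV members in B6 was 0.03 with library 7 and 0.38 without it.

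Complex I had few calls for its size with all libraries and TMM scaling. Of its 29 accessory subunits 6.9% were called in B6 and 3.45% in T169A, against 63.1% and 61.9% of all genes. With the length trend removed more were called in T169A, among them Ndufa10 and Ndufa11 as higher (0.25 and 0.355, edgeR adjusted p = 0.00863 and 0.00391). Ndufab1 was then called lower (−0.266, edgeR adjusted p = 0.0475). Ndufs1, the largest of the core subunits that carry the electron path, was not called, at 54.1 ± 5.27 and 56.4 ± 4.29 CPM in B6 and 53.4 ± 1.54 and 55.6 ± 2.49 CPM in T169A. In the main fit 1 of the 29 accessory subunits rose in T169A, Ndufs4, whose loss in mice causes a Leigh-like disease. It went from 22.2, 22.2 and 26.9 CPM to 30.4, 31.9 and 36.1 CPM (0.46 ± 0.15, edgeR adjusted p = 0.0123), and lost the call without LPS library 17 (0.38, edgeR adjusted p = 0.0586). In B6 without library 7, Ndufs4 (0.42 ± 0.10), Ndufa1, Ndufa5, Ndufa9 and Ndufb6 were higher.

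Some complex I genes were lower after LPS. Ndufab1, the mitochondrial acyl carrier protein, fell in B6 from 13.4, 13.4 and 18.7 CPM in libraries 1, 4 and 7 to 11.2, 10.4 and 10.9 CPM, with no overlap (−0.47 ± 0.13, edgeR adjusted p = 0.00407, and −0.30 ± 0.11 without library 7). In T169A it gave −0.30 ± 0.13 (edgeR adjusted p = 0.0544). Ndufv3, of the NADH-oxidizing tip, was called lower in B6 (−0.53 ± 0.21, edgeR adjusted p = 0.0322) but not without library 2, 5 or 7 (−0.41, −0.49 and −0.20, edgeR adjusted p = 0.137, 0.0916 and 0.277).

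Of the 8 assembly factors of complex I, 2 were lower in B6 and 1 in T169A in the main fit, with 0 higher in either. Of all genes 33.5% were lower in B6 and 31.5% in T169A. With the length trend removed, Ndufaf3, Ndufaf5 and Ndufaf8 were called higher in T169A (0.343, 0.427 and 0.326, edgeR adjusted p = 0.0484, 0.0119 and 0.0339). Ndufaf7 was still called lower there (−0.723, edgeR adjusted p = 0.0014). Ndufaf7, a methyltransferase needed for assembly of the complex, stood at 5.60, 5.14 and 7.69 CPM in unstimulated B6 cells and at 3.40, 3.94 and 2.56 CPM after LPS. In T169A it stood at 5.52, 6.56 and 7.38 CPM and at 2.98, 3.64 and 4.98 CPM. The groups did not overlap in either genotype. The log2 fold changes were −0.85 ± 0.20 in B6, −0.66 ± 0.20 without library 7 and −0.77 ± 0.20 in T169A (edgeR adjusted p = 0.00137, 0.00636 and 0.0031). Ndufaf1, a chaperone of the complex I membrane arm, was called lower in B6 (−0.43 ± 0.13, edgeR adjusted p = 0.00806, and −0.33 ± 0.13 without library 7) and not in T169A (−0.07 ± 0.13). Its B6 call was lost with the length trend removed, with library 7 and without it (−0.259 in each, edgeR adjusted p = 0.0745 and 0.105). Ndufaf2, another assembly factor, had B6 means of 4.81 and 4.43 CPM and was not called.

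In complex II the lower members were Sdhb and the assembly factors. Sdha, the flavoprotein that oxidizes succinate, was not called in the main fit and lay between 204 and 232 CPM in all 18 libraries, with log2 changes of 0.07 ± 0.07 in both genotypes. With the length trend removed Sdha was called higher in B6 and T169A (0.165 and 0.183, edgeR adjusted p = 0.0136 and 0.00722). Sdhb, its iron-sulfur partner, stood at 96.1, 95.8 and 128 CPM in unstimulated B6 libraries 1, 4 and 7 and at 75.6, 86.4 and 83.2 CPM after LPS. It fell by 0.38 ± 0.11 on the log2 scale (edgeR adjusted p = 0.00527), and by 0.23 ± 0.09 without library 7 (edgeR adjusted p = 0.0266), while T169A gave −0.12 ± 0.11 (edgeR adjusted p = 0.359). The membrane anchors Sdhc and Sdhd were not called in the main fit with all libraries, and Sdhc was higher in B6 without library 7 (0.23 ± 0.08).

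Sdhaf1 and Sdhaf3 together help place the iron-sulfur clusters into Sdhb. Sdhaf1 stood at 4.74, 2.98 and 7.32 CPM in unstimulated B6 cells and at 1.12, 1.46 and 1.399 CPM after LPS. In T169A it stood at 4.16, 4.59 and 3.79 CPM and at 0.899, 1.66 and 2.33 CPM. The groups did not overlap in either genotype, and unstimulated library 7 had the highest value of all. The log2 fold changes, −1.89 ± 0.33 in B6, −1.53 ± 0.30 without library 7 and −1.42 ± 0.33 in T169A, were the largest of the members in each fit (edgeR adjusted p = 8.07e-05, 0.000184 and 0.00123). Sdhaf3 went from 3.29 ± 0.133 to 2.02 ± 0.319 CPM in B6 and from 3.36 ± 0.656 to 2.44 ± 0.409 CPM in T169A (SD, n = 3). It fell by 0.72 ± 0.20 in B6 (edgeR adjusted p = 0.00384), and its T169A call at −0.48 ± 0.19 (edgeR adjusted p = 0.0406) was lost without library 11, 13, 16 or 17 (−0.35, −0.44, −0.36 and −0.52, edgeR adjusted p = 0.172, 0.104, 0.152 and 0.0581). Sdhaf2, which attaches the flavin to Sdha, was called lower in B6 (−0.26 ± 0.09, edgeR adjusted p = 0.0171) but not without library 7 or LPS library 5 (−0.16 and −0.22, edgeR adjusted p = 0.0894 and 0.0718). Sdhaf4 was not called in either genotype.

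**Figure D3:**
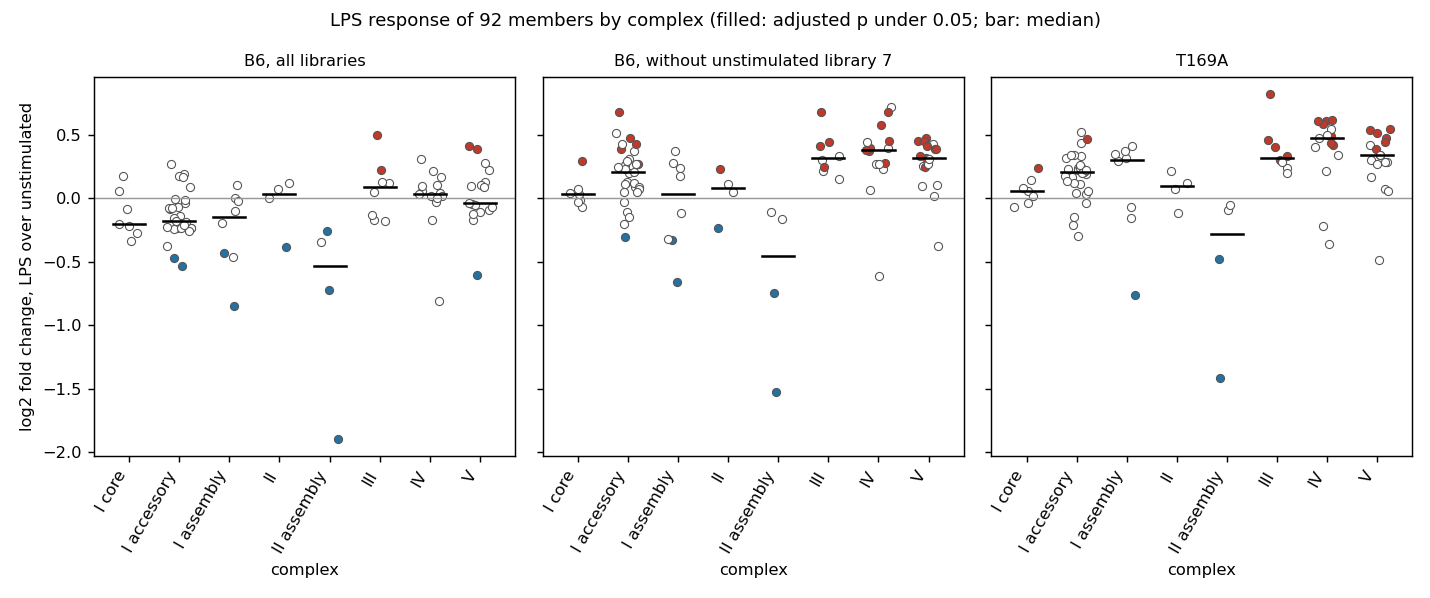
Change of each of the 92 members with LPS (log2 fold change, y axis) by complex (x axis), in B6 with all libraries, in B6 without unstimulated library 7 and in T169A. Filled points passed the edgeR test at an adjusted p under 0.05 (red higher, blue lower) and bars are medians; the complex IV median is 0.03, 0.38 and 0.47 in the panels from left to right, and the lowest point in each is Sdhaf1.

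**Figure D4:**
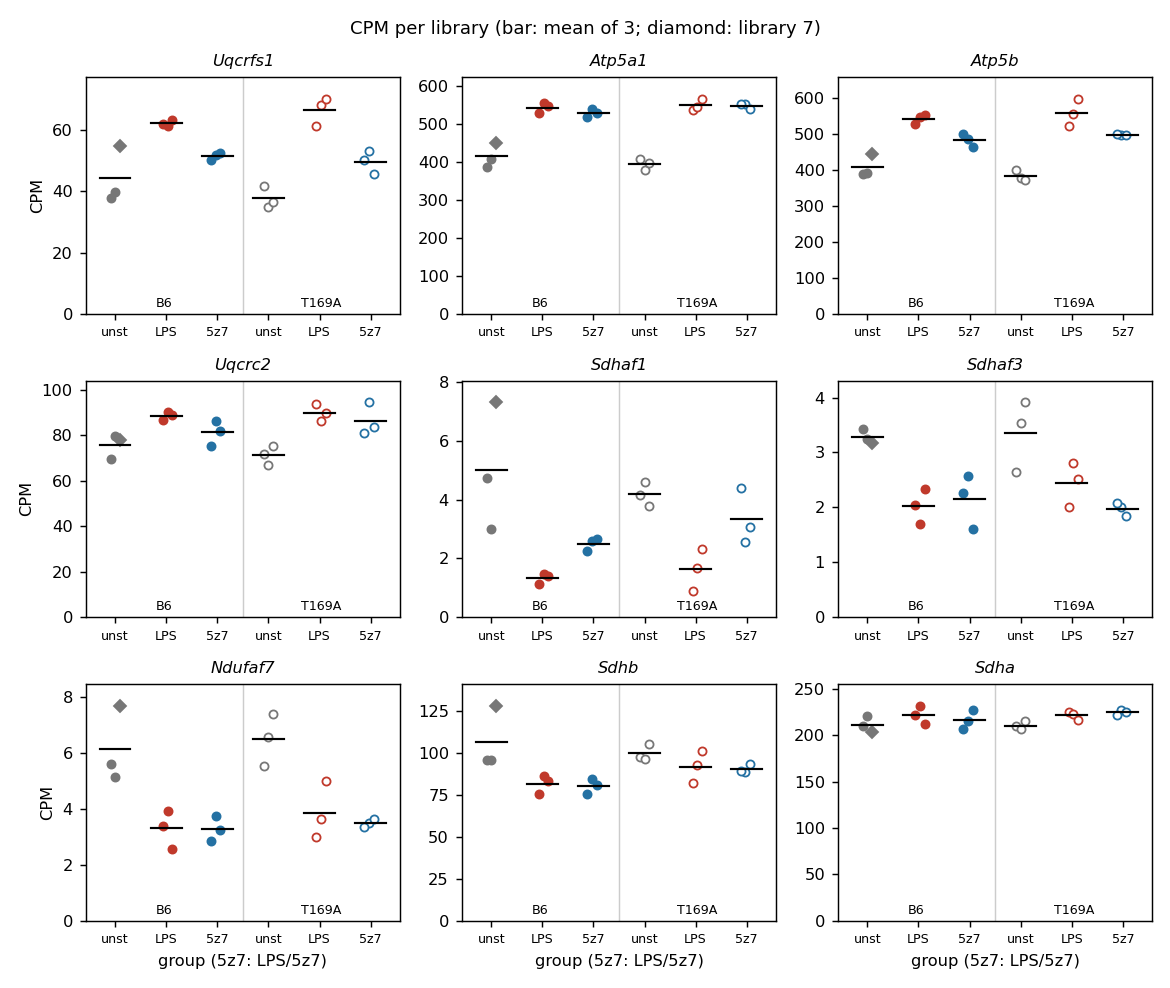
CPM in each library for 9 members (y axis, from 0) in the 6 groups (x axis), filled for B6 and open for T169A, with the mean of 3 as a bar and B6 unstimulated library 7 as a diamond. Uqcrfs1, Atp5a1, Atp5b and Uqcrc2 are higher and Sdhaf1, Sdhaf3 and Ndufaf7 lower after LPS in both genotypes relative to the bulk of genes (by library size alone, the first 4 are negative in B6 and 3 of them in T169A), and Sdha stays between 204 and 232 CPM.

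Promoter sequence was available for 78 of the 92 members tested, in windows from 250 bases before to 50 after the gene start (RefSeq, build GRCm38.p6). These windows were searched on both strands for letters typical of factors known to control respiratory genes. The letters of NRF1 (GCGC, any base, then TGCGC) were present in 20 of 78 members, or 25.6%, and in 1051 of the 9592 tested genes with an entry. The ETS letters CCGGAAG were in 25.6% and 19.3%, the YY1 letters AAGATGGC in 12.8% and 5.0%, the CRE letters TGACGTCA in 5.1% and 3.3%, and the NF-kB letters GGGNNTTCC in 6.4% and 7.5%. A match shows only that these letters are there. Overlaps between the 5 sets of letters were not treated apart. The stretches below are from members called with LPS, with the matched letters in capitals, 5′ to 3′ on the strand of the gene. Each short one is 30 bases long, and positions count from the first base of the gene as 0.

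Uqcrfs1 rose in both genotypes and holds the CRE letters at −29 (chr13:30545327-30545356, minus strand). Atp5g3 rose in T169A and holds NRF1 letters at 12 (chr2:73911295-73911324, minus strand). Ndufs4 holds YY1 letters at 35 (chr13:114388045-114388074, minus strand). Of the genes that fell, Sdhaf1 has ETS letters at 7 (chr7:30322350-30322379, minus strand). Sdhaf3 has NRF1 letters at −7 (chr6:6956001-6956030, plus strand), and its window also holds the ETS letters. Sdhb has ETS letters at 6 (chr4:140961266-140961295, plus strand), and its window also holds the NF-kB letters. Ndufaf7 and Ndufab1, which also fell, hold none of the 5 sets of letters in their windows.
Uqcrfs1: cggcgtcgcgcTGACGTCAcaaaccctgcg
Atp5g3: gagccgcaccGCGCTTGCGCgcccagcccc
Ndufs4: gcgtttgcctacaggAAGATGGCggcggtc
Sdhaf1: tcggggcggtcCTTCCGGccagtgtggggc
Sdhaf3: cccaccttctGCGCAGGCGCggcgcgatgc
Sdhb: gctcggagaaaCCGGAAGcggccttccact

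Longer upstream stretches are shown for Uqcrh, which rose in T169A and has the ETS letters at −10 (chr4:116075072-116075268, minus strand, 197 bases), and for Atp5b, which rose in both genotypes and has none of the 5 sets of letters in its window (chr10:128083073-128083272, plus strand, 200 bases).
Uqcrh: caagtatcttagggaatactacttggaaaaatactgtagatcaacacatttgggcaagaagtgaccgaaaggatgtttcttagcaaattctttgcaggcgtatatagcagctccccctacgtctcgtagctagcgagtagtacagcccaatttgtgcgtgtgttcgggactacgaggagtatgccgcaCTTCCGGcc
Atp5b: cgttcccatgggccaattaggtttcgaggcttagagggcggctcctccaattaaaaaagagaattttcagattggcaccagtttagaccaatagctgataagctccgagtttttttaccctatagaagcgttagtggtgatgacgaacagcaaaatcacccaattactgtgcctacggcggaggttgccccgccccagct

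LPS/5z7 was then compared with LPS alone. In B6, 0 of 92 members passed the edgeR test, 5 had an unadjusted p under 0.05 and DESeq2 called 1, while edgeR called 13.8% of all genes (7.03% higher and 6.79% lower). Those 5 were Sdhaf1, Ndufaf1 and Ndufaf4 on the higher side and Uqcrfs1 and Atp5b on the lower, named after their values were seen. In T169A 1 member rose and 1 fell, against 13% of all genes called (6.5% higher and 6.53% lower). The member medians were 0.00 and 0.03, beside 0.02 for all genes in each genotype.

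The T169A calls were Sdhaf1 and Uqcrfs1, both also called with LPS alone, in the opposite direction. Sdhaf1 stood at 0.899, 1.66 and 2.33 CPM after LPS and at 2.57, 3.07 and 4.41 CPM when 5z7 was added, with no overlap (1.08 ± 0.34, edgeR adjusted p = 0.0463). In B6 the values were 1.12, 1.46 and 1.399 CPM and 2.58, 2.66 and 2.26 CPM, also with no overlap (0.92 ± 0.35, edgeR adjusted p = 0.0988). Uqcrfs1 stood at 61.2, 68.2 and 70.3 CPM after LPS and at 53.2, 45.7 and 50.2 CPM when 5z7 was added in T169A (−0.42 ± 0.12, edgeR adjusted p = 0.0225). In B6 it stood at 62.1, 61.4 and 63.3 CPM and at 51.8, 52.4 and 50.4 CPM (−0.27 ± 0.12, edgeR adjusted p = 0.142). The LPS/5z7 libraries of Uqcrfs1 lay between the unstimulated and the LPS libraries, except for B6 library 7. The comparisons of LPS with unstimulated and with LPS/5z7 cells share the LPS libraries. The T169A call of Sdhaf1 was lost without library 11, 14, 15 or 18 (0.72 to 1.12, edgeR adjusted p = 0.0896 to 0.233), and that of Uqcrfs1 without library 14, 15, 17 or 18 (−0.44 to −0.36, edgeR adjusted p = 0.0613 to 0.112). The number of T169A members called was 1 without library 11, 14 or 17 and 0 without library 15 or 18.

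The catalytic ATP synthase genes were compared in the same libraries. Atp5b stood at 543 ± 12.7 CPM after LPS and 484 ± 18.5 CPM when 5z7 was added in B6, and at 559 ± 38.6 and 498 ± 1.45 CPM in T169A, without passing the test (−0.17 ± 0.08 in each, edgeR adjusted p = 0.189 and 0.202). With the length trend removed it was called lower in both genotypes (−0.21 in each, edgeR adjusted p = 0.0119 and 0.0131), as was Uqcrfs1 (−0.31 and −0.46, edgeR adjusted p = 0.0108 and 0.000535). Atp5a1 stood at 544 ± 13.4 and 529 ± 10.8 CPM in B6 and at 550.4 ± 15.1 and 549 ± 7.83 CPM in T169A. Whether Atp5a1 and Atp5b differ in their change was not tested.

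Compared with unstimulated cells, LPS/5z7 left 17 members higher and 2 lower in T169A, where 55.6% of all genes were called (28.1% higher and 27.5% lower), with a median of 0.29. The risers included Atp5a1 (0.47 ± 0.07), Atp5b (0.38 ± 0.08), Uqcrfs1 (0.40 ± 0.12), Atp5g3 (0.50 ± 0.14), Cox5a (0.62 ± 0.17) and Cox6c (0.59 ± 0.19). The fallers were Ndufaf7 (−0.89 ± 0.20) and Sdhaf3 (−0.77 ± 0.20), while Sdhaf1 was not called (−0.34 ± 0.30, edgeR adjusted p = 0.342). The T169A count was 12 without library 12, 16 or 18, and the call of Cox6c was lost without library 13 (0.53, edgeR adjusted p = 0.0539). The same count was larger with the length trend removed, with consecutive numbers as a block and on the groups compared alone, as given in the closing section. In B6 2 members were higher and 5 lower, against 55.5% of all genes (27.6% higher and 27.9% lower). Atp5a1 (0.35 ± 0.07) and Atp5b (0.24 ± 0.08) were higher, and Ndufaf7 (−0.88 ± 0.20), Sdhb (−0.41 ± 0.11), Sdhaf1 (−0.97 ± 0.30), Sdhaf3 (−0.60 ± 0.20) and Atp5s (−0.69 ± 0.24) lower. Without library 7 the B6 counts were 24 higher and 3 lower against 57.5% of all genes (28.7% higher and 28.8% lower), and the lower ones were Ndufaf7, Sdhaf3 and Sdhb. The B6 median was −0.07 with library 7 and 0.24 without it. Other B6 calls lost without 1 library were Atp5b without 1, 4 or 9 (0.21, 0.21 and 0.20, edgeR adjusted p = 0.0556, 0.0509 and 0.0666), Sdhaf3 without 6 (−0.46, edgeR adjusted p = 0.0695) and Atp5s without 3 or 9 (−0.48 and −0.69, edgeR adjusted p = 0.138 and 0.0523). These comparisons use the same unstimulated libraries as those of LPS alone. Scaled by library size alone, 0 members were higher in either genotype, with 57 lower in B6 and 18 in T169A beside shifts of all genes of −0.47 and −0.43.

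T169A and B6 cells were also compared directly within each condition. The edgeR test called 0 of 92 members in unstimulated, LPS and LPS/5z7 cells, where it called 0.214%, 0.222% and 0.161% of all genes, and 0 in unstimulated cells without library 7, where it called 0.347%. One member in each had an unadjusted p under 0.05, namely Cox5a (−0.38 ± 0.17), Ndufb2 (0.29 ± 0.13) and Ndufa12 (0.41 ± 0.19), and DESeq2 called 0. For the difference in LPS change between the genotypes edgeR called 0 members and 0% of all genes (lowest adjusted p = 0.916, with 4 at an unadjusted p under 0.05, and 0 called by DESeq2), and it called 0 as well for the change with 5z7 added (lowest adjusted p = 1, with 0 at an unadjusted p under 0.05) and for LPS/5z7 against unstimulated cells (lowest adjusted p = 0.83, with 2). DESeq2 called 0 in these as well. The 4 in the LPS change were Ndufb2, Ndufaf6, Cox5a and Cox8a, named after their values were seen. Without library 7, 0 members and 0% of all genes were called for either difference that involves unstimulated cells. The median of the difference in LPS change was 0.32 with all libraries and 0.03 without library 7, that for LPS/5z7 against unstimulated cells was 0.34 and 0.06, and the median of T169A over B6 in unstimulated cells was −0.13 and 0.13. Calls for Sdhb, Ndufab1 and Ndufaf1 in B6 alone, and for Cox5a, Cox5b and Cox8a in T169A alone, are thus not shown to differ between the genotypes.

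With LPS/5z7 the members lay higher in T169A, without a call in the fit over all 6 groups. A fit on the groups compared alone called 2 members. For 43 of 92 members all 3 T169A libraries lay above all 3 B6 libraries, and 0 lay below, against 10.8% and 12.3% of all genes, and the same held upwards for 293 of 1407 other short transcripts, and the median was 0.18 beside 0.14 for the other short transcripts. Libraries 12, 15 and 18 of T169A had member medians of 0.05, 0.14 and 0.23 and short-transcript medians of 0.01, 0.11 and 0.18. Libraries 3, 6 and 9 of B6 had −0.02, −0.04 and −0.07 and −0.04, −0.07 and −0.04. In unstimulated cells 0 members were apart upwards or downwards, against 4.36% and 4.12% of all genes, and with LPS 5 and 0, against 5.26% and 5.22%. Without library 7, which leaves 2 B6 libraries, 41 members were apart upwards and 1 downwards in unstimulated cells, against 15% and 20.1% of all genes. The part of library composition in these counts was not tested.

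Genes around the same pathway, from lists chosen with earlier results of these data known, were described on the TMM scale alone. Of the 13 subunits encoded by mitochondrial DNA 7 could be tested, since mt-Co2, mt-Co3, mt-Atp6, mt-Atp8 and mt-Nd4l are listed at 0 and mt-Nd3 at nearly 0. With LPS 5 of 7 were higher in B6, 4 of 7 without library 7, and 4 of 7 in T169A, for example mt-Cytb of complex III from 1831 to 2269 CPM in the B6 means (0.31 ± 0.09, edgeR adjusted p = 0.00539). Among 36 assembly factors outside the member names, 5 rose and 15 fell in B6, 8 rose and 15 fell there without library 7, and 8 rose and 14 fell in T169A. The shares of all genes called in these 3 fits were 63.1%, 64.9% and 61.9%. Taco1, an activator of complex IV translation, fell by 1.25 ± 0.17 and 1.42 ± 0.17, and Ttc19 of complex III rose by 1.45 ± 0.13 and 1.52 ± 0.14. With 5z7 added, against the same LPS libraries, Taco1 rose by 0.78 ± 0.17 in each genotype and Ttc19 fell by 0.48 ± 0.13 and 0.55 ± 0.13 (edgeR adjusted p at most 0.0204 for these 8 changes).

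The carriers between the complexes were split. For the counts that follow, 63.1% of all genes were called with LPS in B6, 64.9% there without library 7 and 61.9% in T169A. Of 16 cytochrome c and coenzyme Q genes 4 rose and 8 fell with LPS in B6, 5 rose and 6 fell there without library 7, and 5 rose and 5 fell in T169A. Cycs, which encodes cytochrome c, went from 11.8 to 32.8 CPM in the B6 means (1.48 ± 0.15, edgeR adjusted p = 1.44e-07) and by 1.60 ± 0.15 in T169A, more than any member rose. Coq9, needed for coenzyme Q synthesis, fell by 1.02 ± 0.13 in B6 and 0.84 ± 0.13 in T169A. Of 19 tricarboxylic acid cycle genes 6 rose and 2 fell in B6, 7 rose and 1 fell there without library 7, and 11 rose and 0 fell in T169A, with citrate synthase, Cs, up by 0.67 ± 0.08 and 0.66 ± 0.08. Among 18 regulators of mitochondrial genes 7 rose and 7 fell in B6, 8 and 5 without library 7, and 8 and 7 in T169A. The coactivator Ppargc1b rose (2.01 ± 0.17 and 1.74 ± 0.17), as did Nrf1 (0.51 ± 0.07 and 0.45 ± 0.07), while Tfam, which packages and transcribes mitochondrial DNA, fell (−0.49 ± 0.09 and −0.48 ± 0.09). Without library 7 the B6 changes were 1.56 for Cycs, −0.90 for Coq9, 0.58 for Cs, 1.94 for Ppargc1b, 0.50 for Nrf1 and −0.44 for Tfam.

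Ribosomal protein genes were counted beside the members as other groups of short transcripts. Of 78 cytosolic ribosomal protein genes 1 rose with LPS in B6 with all libraries, 59 rose without library 7 and 32 rose in T169A, and 0 fell in any of these. Of 77 mitochondrial ribosomal protein genes 6 rose and 26 fell in B6, 15 rose and 17 fell without library 7, and 18 rose and 13 fell in T169A. The corresponding counts of the 92 members were 4 and 9, 27 and 6, and 21 and 3. Of all genes 63.1%, 64.9% and 61.9% were called in these 3 fits.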

How the data were processed

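The authors deposited unnormalized read counts for each gene. The tools named, per the submitters' processing notes, are Trim Galore, STAR and featureCounts, and the build is GRCm39; their versions, the strand setting and the treatment of reads matching several genes are not given in the sources used here. RNA was TRIzol-extracted total RNA in directional libraries, per the labels. Columns carry a group and a running number, so they were tied to groups. Symbols and the length of the shortest principal transcript came from GENCODE M21 (91.4% of IDs matched); the promoter table is RefSeq GRCm38.p6.

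Counts were filtered by group (filterByExpr), scaled by TMM and fitted with edgeR 4.0.16 in R 4.3.3 as 6 group means over all 18 libraries, with robust quasi-likelihood F-tests for 12 comparisons and Benjamini-Hochberg adjustment over 13068 genes at 0.05. Fold changes are log2 ± SE, levels mean ± SD of 3. The fit was tested on simulated data. Alternatives were DESeq2 1.42.0, its size factors, library size alone, other filters, fits on the groups compared, a 1.5-fold minimum, removal of the length trend, sets of consecutive numbers as a block, scaling to the members' median and each library left out; the members' median scaling and the length trend without library 7 were added after the data were seen. Depth was 14645076 to 30425934 counts, and replicate pairs differed by 2.89 to 101 times counting variance.

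The members, lists and tests were chosen with earlier results of these data known. Named members are, per complex and comparison, the 3 called with the smallest p each way and the most abundant not called, those called in both genotypes, and a fixed set of isoforms, complex II and catalytic subunits; other names were chosen after their values were seen. A result that this rule would name is not reported here.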

Additional observations from a re-analysis of the deposited data

How the results depend on the processing

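Of 212 counts of called members under alternatives, 171 stayed within 1.5 times the main count, and of 804 single fold changes 624 kept direction and call, 162 lost the call and 18 changed sign. In the order LPS in B6, LPS in T169A, LPS/5z7 over LPS in B6 and in T169A, and LPS/5z7 over unstimulated in B6 and in T169A, the counts were 13, 24, 0, 2, 7 and 19. On the groups compared alone they were 6, 39, 2, 1, 2 and 58, and 2 for T169A over B6 with LPS/5z7. With the length trend removed, LPS gave 32 and 48, LPS/5z7 over LPS in B6 gave 2, and LPS/5z7 over unstimulated gave 20 and 49; without library 7 as well, B6 gave 42 with LPS and 38 with LPS/5z7. Library size alone gave 83, 4 and 57 in B6. A fold of at least 1.5 gave 4 and 6 with LPS, 1 for LPS/5z7 over LPS in T169A, and 4 and 4 for LPS/5z7 over unstimulated. DESeq2 gave 1 and 4 for LPS/5z7 over LPS. Scaled to the members' median, T169A gave 14, 1 and 9. Leaving out 1 library gave 10 to 33 and 11 to 28 with LPS, 0 to 2 for LPS/5z7 over LPS in T169A, and 6 to 27 and 12 to 14 for LPS/5z7 over unstimulated. The sample titles give each set of 3 treatments a letter that the columns do not carry, so sets of 3 consecutive column numbers stood in for it. Their deviations from the group means correlated by −0.05 to 0.46 in the same set and −0.45 to 0.42 otherwise. All 3 pairs were over 0.1 for LPS in B6 (0.31, 0.18 and 0.46), where the block gave 14 called members, and not in the other comparisons. With such a replicate block, LPS/5z7 over unstimulated in T169A gave 34 and the others stayed within 1.5 times. Library size alone turned Atp5a1, Atp5b, Uqcrfs1 and Uqcrc2 with LPS in B6 to −0.202, −0.183, −0.098 and −0.37. With LPS in T169A it turned Atp5b, Atp5a1, Uqcrc2, Atp5g3, Ndufs4 and Uqcrb to −0.036, −0.103, −0.246, −0.044, −0.118 and −0.122. With LPS/5z7 it turned Atp5a1 and Atp5b in B6 to −0.076 and −0.186, and Atp5b, Uqcrfs1, Uqcrc2, Sdhd and Uqcrh in T169A to −0.046, −0.028, −0.148, −0.206 and −0.025. The members' median turned Sdhd to −0.036 with LPS/5z7 in T169A. The scalings differ by the shift they give all genes; for the other changes the cause was not tested. Apart from the fit without library 7 alone, the counts under alternatives are given without the share of all genes called at the same setting. Members under 5 CPM, such as Sdhaf1 and Sdhaf3, rest on few counts.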
